A study of Homo sapiens with 6 samples.

Results

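The mitotic entry and exit regulators described here are 10 genes that drive a cell into mitosis and out of it: Cdk1, Ccnb1, Ccnb2, Ccna2, Plk1, Aurka, Foxm1, Cdc25c, Ube2c and Cdc20. They were taken by identifier, as the 10 of the 34866 rows of the deposited table whose Ensembl mouse gene ID equals that of a member. All 10 rows were found, and 7 held enough counts to be tested. The libraries are labelled as MKN45, an established line of human gastric cancer cells that the study's design calls Muc6 negative. The cells were grown in RPMI1640 with FBS, and every sample received an adenovirus. In 3 samples it carried a control short hairpin RNA (shRNA), and in 3 it carried shRNA against Golph3, a Golgi protein that the study relates to gastric carcinogenesis. The titles number the libraries of each group 1 to 3, and these numbers are called replicates here. The labels do not give the time after infection, the number of hairpins, or whether replicates were separate cultures. For Golph3 shRNA the numbers may stand for replicates or for hairpins. The p-values therefore rest on the variation among these 6 libraries, and part of it may be technical.

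Entry into mitosis depends on the kinase Cdk1 bound to a B-type or A-type cyclin. The complex is held inactive by inhibitory phosphorylation, which the phosphatase Cdc25c removes, and the kinases Aurka and Plk1 promote this activation and build the spindle. The transcription factor Foxm1, acting with other factors at late cell cycle promoters, raises the transcription of many of these genes as cells approach mitosis. At exit, the anaphase-promoting complex, switched on by Cdc20 and supplied with ubiquitin by Ube2c, marks the cyclins for destruction.

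The promoters of several of these genes share short elements, which are shown for the members that were tested and have an entry in the RefSeq table of human promoters (GRCh38.p14), matched by symbol. An entry was found for 7 of the 10 members, 4 of them tested. Each sequence runs 5′ to 3′ on the gene's own strand over the 250 bases before the transcript start: PLK1 at chr16:23678639-23678888 (plus strand), CCNB2 at chr15:59104896-59105145 (plus), CDC20 at chr1:43358731-43358980 (plus) and CCNA2 at chr4:121823884-121824133 (minus). Capitals mark matches, on either strand, to CCAAT, the core of the box bound by NF-Y, and to 4 hexamers known as forms of the cell cycle genes homology region (CHR), an element bound by the DREAM and MuvB complexes: TTTGAA (form 1), CTTGAA (form 2), TTCGAA (form 3) and TTTAAA (form 4). No matches overlapped in these 4 windows. These are human sequences, whereas the counts are by mouse gene ID.
PLK1: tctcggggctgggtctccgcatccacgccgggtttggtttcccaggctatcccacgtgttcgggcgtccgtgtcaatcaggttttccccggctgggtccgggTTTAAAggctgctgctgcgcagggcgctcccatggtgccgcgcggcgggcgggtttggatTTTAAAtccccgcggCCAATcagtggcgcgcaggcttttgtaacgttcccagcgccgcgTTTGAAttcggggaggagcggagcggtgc
CCNB2: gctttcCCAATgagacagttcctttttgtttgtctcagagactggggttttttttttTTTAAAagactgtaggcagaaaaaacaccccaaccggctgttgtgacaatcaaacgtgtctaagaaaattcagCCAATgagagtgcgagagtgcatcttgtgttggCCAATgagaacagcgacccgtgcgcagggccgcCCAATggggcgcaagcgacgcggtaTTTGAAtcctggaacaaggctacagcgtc
CDC20: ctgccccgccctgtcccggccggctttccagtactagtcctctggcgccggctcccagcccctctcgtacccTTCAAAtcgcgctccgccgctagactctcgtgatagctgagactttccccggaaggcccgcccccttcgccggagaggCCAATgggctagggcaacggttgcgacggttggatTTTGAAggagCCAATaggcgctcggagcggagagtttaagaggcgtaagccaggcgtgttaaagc
CCNA2: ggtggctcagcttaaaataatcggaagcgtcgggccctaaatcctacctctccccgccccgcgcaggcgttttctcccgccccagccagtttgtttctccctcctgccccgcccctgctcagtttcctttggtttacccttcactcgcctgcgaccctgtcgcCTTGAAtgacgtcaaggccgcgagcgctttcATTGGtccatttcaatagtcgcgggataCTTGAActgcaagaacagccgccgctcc

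Of the 4 members that fell with Golph3 shRNA (values below), Aurka had no promoter entry. The promoters of the other 3, PLK1, CCNB2 and CDC20, held TTTGAA. In PLK1 and in CCNB2 it lay at the same distance, from base -29 to base -24 before the start. CDC20 had 2 matches, at -65 to -60 on the gene's strand and at -178 to -173 on the other strand. CCNA2, which was not called, had no TTTGAA and carried CTTGAA at -28 to -23 and at -87 to -82. TTTAAA was matched 2 times in PLK1, 1 time in CCNB2, and 0 times in CDC20 and in CCNA2. CCAAT was matched 1 time in PLK1, 4 times in CCNB2, 2 times in CDC20 and 1 time, on the other strand, in CCNA2. Among all 34941 RefSeq promoter windows of the same length, TTTGAA was found in 13.4%, CTTGAA in 9.53%, TTCGAA in 1.2%, TTTAAA in 11.3% and CCAAT in 32.0%, and at least 1 of the 4 hexamers in 29.1%. With 4 windows, the split of forms between called and uncalled genes is a description only, and a match is not evidence of binding.

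**Figure D1:**
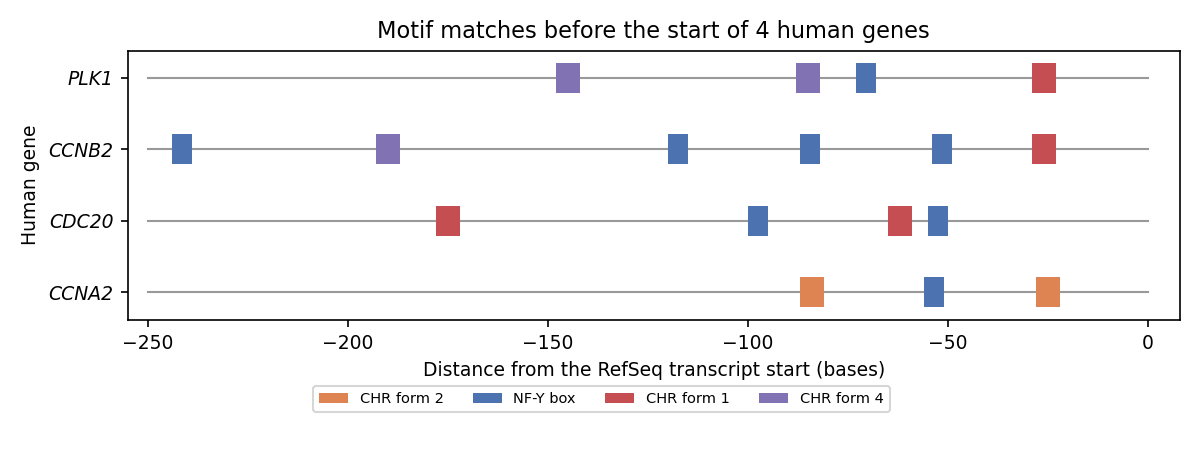
Positions of motif matches in the 250 bases before the RefSeq start of PLK1, CCNB2, CDC20 and CCNA2; the horizontal axis is the distance from the start in bases, and each block is 1 match on either strand. CHR form 1 is TTTGAA, form 2 CTTGAA and form 4 TTTAAA, form 3 (TTCGAA) had no match, and the NF-Y box is CCAAT. PLK1 and CCNB2 carry form 1 from -29 to -24.

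The control libraries held 6287037 to 7355140 estimated counts, and those with Golph3 shRNA 4977645 to 5676169. Of the 34866 IDs, 16727 had no counts in any library and 11400 passed the filter on low counts. The table gives mouse gene IDs and the submitters' processing notes name the mouse build mm10, although the labels call the cells human, so a level here is the number of reads assigned to a mouse gene model and is not read as the abundance of a transcript. Gene lengths for these models were not used. Counts of different members therefore do not rank their abundance, and ratios of members are read only between the groups. No table used here pairs other mouse IDs with symbols, so Golph3 itself, which would check the knockdown, and the markers of gastric epithelium were not analysed here.

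With Golph3 shRNA, 4 of the 7 tested members fell: Plk1, Cdc20, Ccnb2 and Aurka. Plk1 fell the most, to 32.3% of the control level, and the other called members fell to between 56.5% and 64.9%. Foxm1, Ube2c and Ccna2 were not called, and no member (0) was called higher (edgeR's quasi-likelihood F test, called at a p below 0.05 after Benjamini-Hochberg adjustment over 11400 IDs). At an unadjusted edgeR p below 0.05 the number of members higher was also 0. With DESeq2 and with limma-voom, at an adjusted p below 0.05, the number called higher was 0 as well. Across all tested IDs 33.9% were called, 17.8% lower and 16.1% higher. The median log2 fold change of the 7 tested members was -0.62, against 0.0019 over all tested IDs, whose quartiles were -0.32 and 0.30. In bulk RNA, fewer cells in G2 and mitosis and less of these transcripts per cell cannot be told apart.

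**Figure D2:**
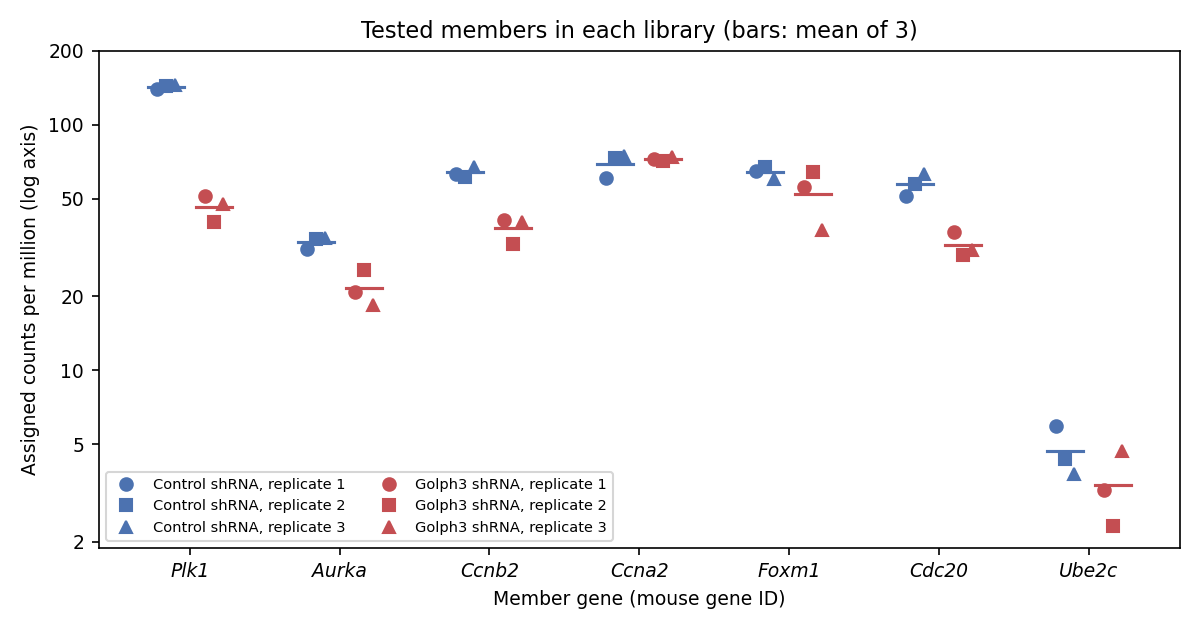
Estimated counts scaled for library size (CPM, log axis) of the 7 tested members in each library; symbols are replicates 1 to 3, blue is control shRNA, red is Golph3 shRNA, and bars are means of 3. The red and blue values are separate for Plk1, Aurka, Ccnb2 and Cdc20 and overlap for Ccna2, Foxm1 and Ube2c.

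Among the kinases, Plk1 (ENSMUSG00000030867), which activates the Cdk1 switch and acts at centrosomes and kinetochores, had 897, 1055 and 923 estimated counts in control replicates 1, 2 and 3. With Golph3 shRNA it had 253, 225 and 262. As CPM, scaled for library size with TMM factors, this was 139.6, 143.9 and 145.5 in the controls and 51.3, 40.3 and 47.3 with Golph3 shRNA. The control values lay close together and far above all Golph3 shRNA values, of which replicate 2 was the lowest. The mean went from 143.0 ± 3.01 to 46.3 ± 5.58 CPM (SD, n = 3 per group), or -1.63 on the log2 scale (SE 0.096, adjusted p = 1.11e-08 with edgeR). Plk1 was 3.09-fold lower and ranked 84 among the 11400 tested IDs by size of decrease.

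Aurka (ENSMUSG00000027496), the centrosomal kinase that phosphorylates Plk1 and matures the spindle poles, had 31.1, 34.4 and 34.7 CPM in the controls and 20.9, 25.6 and 18.4 CPM with Golph3 shRNA. The groups did not overlap, and Golph3 shRNA replicate 2, the lowest library for Plk1, was the highest of its group for Aurka. It changed by -0.62 on the log2 scale (SE 0.14, adjusted p = 0.0032 with edgeR), from 33.4 ± 1.96 to 21.6 ± 3.65 CPM (SD, n = 3 per group). Cdk1 (ENSMUSG00000019942), the kinase on which mitotic entry depends, was assigned 1, 2 and 2 counts in the controls and 1, 0 and 3 with Golph3 shRNA. Its row did not pass the filter, and with so few counts a change in Cdk1 was not detectable. Why so few counts were assigned to this row was not tested.

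Of the cyclins, Ccnb2 fell and Ccna2 was not called; the difference between them was not tested. Ccnb2 (ENSMUSG00000032218), a B-type partner of Cdk1, had 63.0, 61.4 and 67.5 CPM in the controls and 41.0, 32.8 and 40.1 CPM with Golph3 shRNA. All Golph3 shRNA values lay below all control values, again with replicate 2 lowest, and the change was -0.75 on the log2 scale (SE 0.11, adjusted p = 7.42e-05 with edgeR). Ccna2 (ENSMUSG00000027715), which acts from S phase until early mitosis, had 60.4, 73.0 and 74.4 CPM in the controls and 72.6, 71.3 and 74.1 CPM with Golph3 shRNA. The Golph3 shRNA values fell within the span of the controls, in which replicate 1 was low. Its log2 fold change was 0.068 with a 95% interval of -0.14 to 0.28 (edgeR adjusted p = 0.63), so a decrease of the size seen for Ccnb2 lies outside the interval, and small changes in either direction lie within it. Without control replicate 1 the estimate was -0.025. Ccnb1 (ENSMUSG00000041431), the main mitotic cyclin in most cells, had 4.71 estimated counts in control replicate 1 and 0 in the 5 other libraries, and was not tested.

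Foxm1 (ENSMUSG00000001517), the transcription factor, gave the most uneven values within the Golph3 shRNA group of the tested members other than Ube2c. It had 65.1, 67.5 and 60.0 CPM in the controls and 55.8, 63.9 and 37.4 CPM with Golph3 shRNA. Replicate 3 was low, replicate 2 lay within the control range, and the coefficient of variation was 25.9% with Golph3 shRNA against 5.92% in the controls. The log2 fold change was -0.30 (95% interval -0.60 to 0.013, edgeR adjusted p = 0.13). Foxm1 was called without Golph3 shRNA replicate 2 (-0.47, edgeR adjusted p = 0.024) and with no filter on low counts (-0.31, edgeR adjusted p = 0.024), and the estimate was -0.11 without replicate 3. Over the other alternatives its adjusted p ran from 0.054 to 0.51. In replicate 3, where Foxm1 was lowest, Aurka was also at its lowest, whereas Plk1, Ccnb2 and Cdc20 were lowest in replicate 2.

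The phosphatase Cdc25c (ENSMUSG00000044201) was assigned 1 count in each control library and 2.15, 1 and 0 estimated counts with Golph3 shRNA. It was not tested. As a level here is the number of reads assigned to a mouse gene model, so few counts are not read as absence of a transcript. Cdk1, Ccnb1 and Cdc25c all had between 0 and 4.71 estimated counts in every library. With no filter they entered the fit and were not called (edgeR adjusted p of 1.00 for Cdk1, 0.24 for Ccnb1 and 0.93 for Cdc25c).

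Of the genes of mitotic exit, Cdc20 (ENSMUSG00000006398), which activates the anaphase-promoting complex, had 51.1, 57.1 and 63.0 CPM in the controls and 36.5, 29.5 and 30.9 CPM with Golph3 shRNA. The groups did not overlap, and the change was -0.82 on the log2 scale (SE 0.12, adjusted p = 6.99e-05 with edgeR), or 1.77-fold lower. Every estimated count of Cdc20 had a fractional part, whereas 5 of the tested members had whole numbers in all libraries; how the fractions arose is not stated in the sources used here. Plk1 had 1 fractional value, in control replicate 2. Ube2c (ENSMUSG00000001403), the ubiquitin-conjugating enzyme of that complex, had 38, 32 and 24 counts in the controls and 16, 13 and 26 with Golph3 shRNA. Golph3 shRNA replicate 3 overlapped the controls once scaled, at 4.70 CPM against 3.78 to 5.92 CPM. Its log2 fold change of -0.45 had a 95% interval from -1.24 to 0.34 (edgeR adjusted p = 0.38). The interval spans the decreases of Cdc20, Ccnb2 and Aurka as well as no change, so at these counts Ube2c could not be placed with the called or the uncalled members. When control replicate 1 was left out, the estimate was -0.26. Leaving out Golph3 shRNA replicate 2 gave -0.23, and leaving out Golph3 shRNA replicate 3 gave -0.76.

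**Figure D3:**
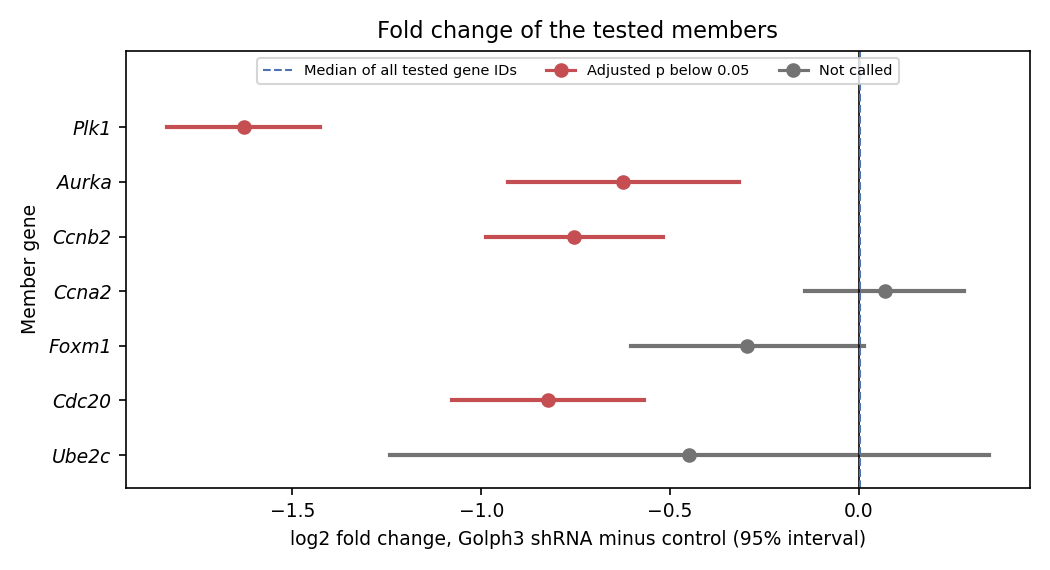
log2 fold change (Golph3 shRNA minus control, horizontal axis) of the 7 tested members with 95% intervals from the edgeR fit; red marks adjusted p below 0.05, grey not called, and the dashed line is the median of all tested IDs. The interval of Plk1 (-1.83 to -1.43) lies below those of all other members.

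All 3 Golph3 shRNA values lay below all 3 control values for the 4 called members, and the groups overlapped for the other 3. Over all tested IDs, 24.2% had all Golph3 shRNA values below all control values and 22.1% had them above. In order of decrease the members ran Plk1, Cdc20, Ccnb2, Aurka, Ube2c, Foxm1 and Ccna2. Plk1 was separate from its neighbour, whereas the intervals of Cdc20 (-1.08 to -0.57), Ccnb2 (-0.99 to -0.52) and Aurka (-0.93 to -0.32) overlapped widely.

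**Figure D4:**
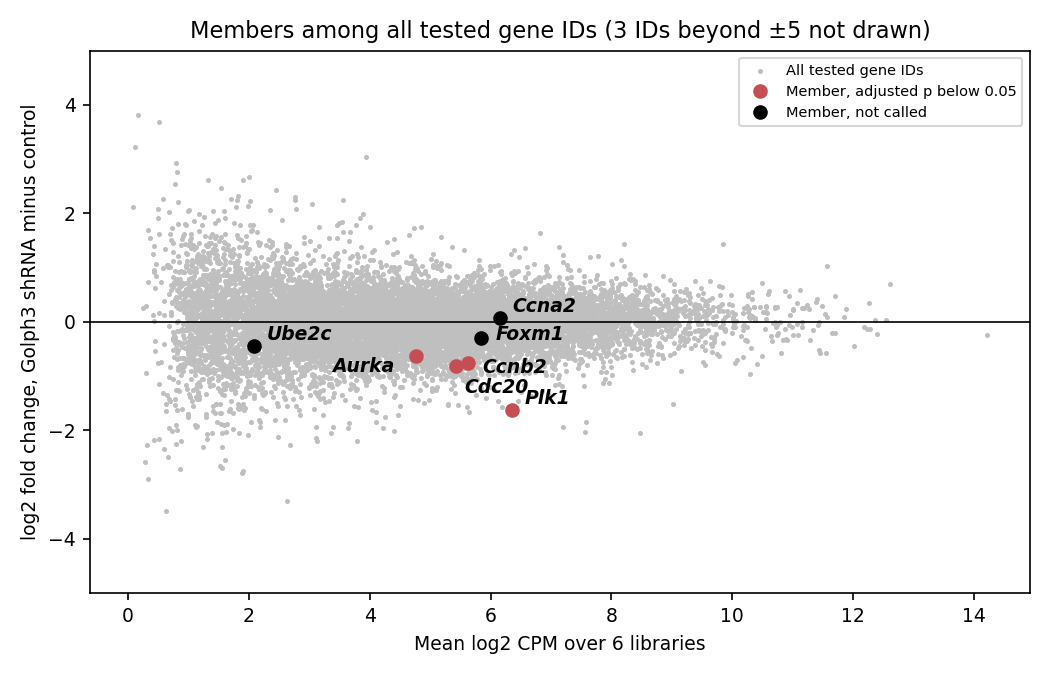
log2 fold change (vertical axis) against mean log2 CPM over the 6 libraries (horizontal axis) for the 11400 tested IDs (grey; 3 IDs beyond 5 in either direction are not drawn) with the 7 members marked. Plk1, at -1.63, lies near the lower edge of the IDs of its abundance, and Ccna2 lies near 0.

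Ratios of members within a library do not depend on how libraries are scaled. Plk1 was set against the other tested members because it changed the most, so these values are given without a test. The ratio of Plk1 to Ccna2 counts was 2.31, 1.97 and 1.96 in the controls and 0.71, 0.57 and 0.64 with Golph3 shRNA, or 3.27-fold lower on average. Relative to Ccnb2, Plk1 went from 2.21, 2.34 and 2.16 to 1.25, 1.23 and 1.18, which is 1.83-fold lower (SD of log2 ratios 0.062 in the controls and 0.044 with Golph3 shRNA). Against Cdc20 it was 1.76-fold lower, against Aurka 1.99-fold, against Ube2c 2.21-fold and against Foxm1 2.47-fold. In all 6 ratios the 3 Golph3 shRNA values lay below the 3 control values. Plk1, picked for its large change, was thus lower relative to each other tested member in every library pair that can be drawn between the groups.

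**Figure D5:**
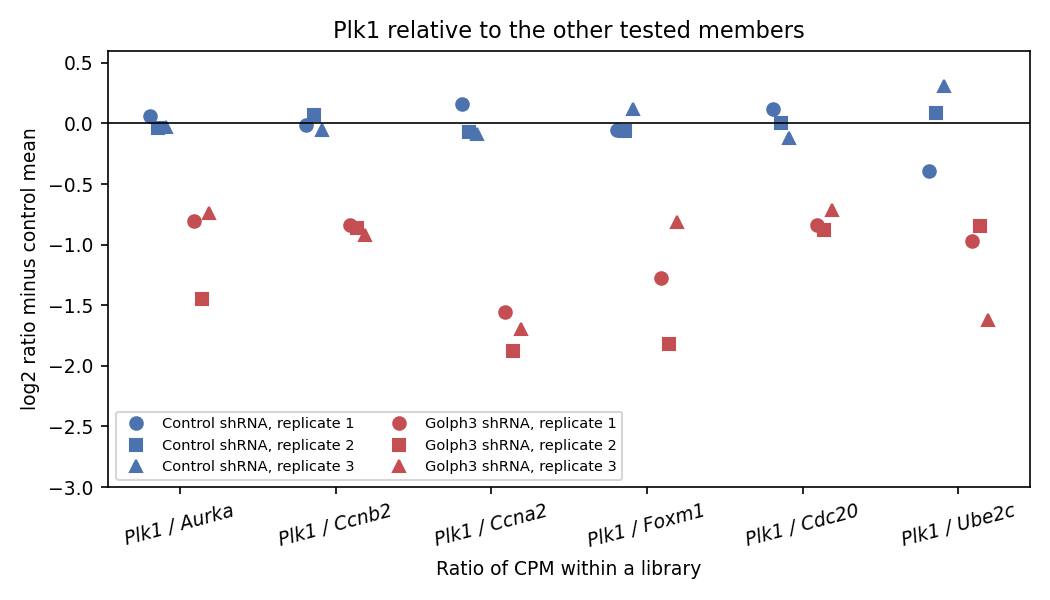
Ratio of Plk1 to each other tested member within a library, as log2 ratio minus the control mean (vertical axis); symbols are replicates 1 to 3, blue is control shRNA and red is Golph3 shRNA. All red points lie below all blue points in each of the 6 ratios, and the red points of Plk1 to Foxm1 are the most spread (SD 0.50).

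Most members are also markers of G2 and mitosis in an outside resource. The scran package lists pairs of genes, trained on mouse embryonic stem cells, in which the more highly expressed partner tells the cycle phase, and a gene's net pair number is how often it is the higher member of a pair less how often it is the lower. For G2/M this number was 125 for Cdc20, 103 for Plk1, 59 for Cdc25c, 58 for Aurka, 49 for Ccna2, 48 for Ube2c and 41 for Cdk1. Foxm1 had its largest net number for S phase, 17, and Ccnb1 and Ccnb2 stayed under the minimum of 10 used here. The remaining G2/M markers of the resource were counted as well, since they come with mouse IDs. They were picked by net pair number and not by a role in mitotic entry or exit. Of 125 tested markers outside the members, 46 were called lower (36.8%), 19 higher (15.2%) and 60 were not called, where 17.8% of all tested IDs were lower and 16.1% higher. The number called higher was 12 when control replicate 2 or Golph3 shRNA replicate 1 was left out. Their median log2 fold change was -0.22, and 2 of the 125 fell further than Plk1. This list was used with earlier results on these libraries known and is no independent evidence of its direction.

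The 5 tested IDs outside the members whose log2 CPM most resembled the members' mean standardized profile had Pearson correlations of 0.994 to 0.998 over the 6 libraries. All 5 were lower with Golph3 shRNA, with log2 fold changes from -0.85 to -0.24. This direction comes with picking them by likeness to the members' profile and is not a separate result. No table used here gives their symbols. The points share the group difference, and with 6 libraries and 11400 IDs such values describe the libraries only.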

How the data were processed

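RNA sequencing was analysed in 6 libraries, 3 per group. Per the labels' protocols, RNA was isolated with a spin column kit and libraries were made with a stranded mRNA kit. The authors deposited estimated counts for each gene ID in 1 table, without normalization. The submitters' processing notes name the build mm10. The aligner, quantifier, annotation release, strand setting and filters were not given in the sources used here. Estimated counts were rounded to whole numbers and filtered with filterByExpr (11400 of 34866 IDs kept). The comparison used edgeR 4.0.16 under R 4.3.3 (TMM factors, quasi-likelihood F test, Benjamini-Hochberg adjustment across all genes, called at adjusted p below 0.05). Standard errors were derived from the log2 fold change and its F statistic, and 95% intervals use the fit's degrees of freedom. log2 CPM used a prior count of 2. Phase pairs came from scran 1.30.0. This fit was checked on simulated data with known changes. There, false calls made up a larger share of its calls than the threshold allows, and most of the smallest changes were not called. Alternatives were DESeq2 1.42.0, limma-voom (limma 3.58.1), other scalings and filters, a block for the replicate number, leaving out each library, IDs with whole estimates only, and thinning all libraries to the smallest total.

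The members and lists were chosen with earlier results of these data known. All 10 members are named; other genes were to be named only where a table pairs the ID with a symbol, and none did. Lists by symbol (other mitotic entry, exit and replication genes, cell type markers and the Golph3 check) were therefore not analysed here. The phase-pair list replaced them after the data were examined.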

Additional observations from a re-analysis of the deposited data

How the results depend on the processing

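Plk1, Ccnb2, Cdc20 and Aurka stayed lower and called under every alternative run for them. Their log2 fold changes ran from -1.71 to -1.54 for Plk1, -0.92 to -0.75 for Cdc20, -0.82 to -0.66 for Ccnb2 and -0.77 to -0.52 for Aurka, the last with adjusted p up to 0.017. The number of members called lower was 4 or 5 except with whole-number estimates only, where it was 2, because Plk1 and Cdc20 have fractional estimates and leave that fit. The same fit, with 6263 IDs, called 1240 IDs lower. Leaving out each library in turn gave a member median from -0.76 to -0.60. The value of -0.76, without Golph3 shRNA replicate 3, was the estimate of Ube2c, whose interval was wide in the full fit. Ccna2, not called in any setting, turned to -0.025 without control replicate 1, the lowest of the values with a library left out, which reached 0.12. The other G2/M markers called higher numbered 12, where the full fit called 19, without control replicate 2, without Golph3 shRNA replicate 1 and with whole-number estimates only. Medians with fewer than 7 members (a filter of 5 CPM in 3 libraries, which drops Ube2c, and whole-number estimates) were not computed. Planned results for Golph3 and for lists by symbol were not run. With the replicate number as a block, 2045 IDs were lower and 1842 higher, 4 members were called lower, and no member's call changed. Same-numbered libraries of the 2 groups deviated from their group means with correlations of 0.032, 0.090 and 0.044. For differently numbered libraries the correlations ran from -0.086 to 0.037. All of these were small, and the main fit did not take the numbers as pairs. Low counts kept Cdk1, Ccnb1 and Cdc25c from being tested, for a reason that was not tested, and left Ube2c with a wide interval.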
